A study of Mus musculus with 2 samples.

Results

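The pore-forming and auxiliary genes of voltage-gated sodium channels, of HCN channels (hyperpolarisation-activated, cyclic nucleotide-gated channels) and of calcium channels were described in single spiral ganglion neurons of the mouse cochlea, in control mice and in mice with a floxed allele of *Runx1*, a transcription factor of the RUNT family. The genes were taken by name. They were every gene of the expression table whose symbol begins with Scn or Hcn and a digit, or with Cacn, together with *Nalcn*, the sodium leak channel. This gave 34 of the 14425 genes listed, among them 19 calcium channel genes (7 *Cacna1*, 4 *Cacna2d*, 4 *Cacnb* and 4 *Cacng*). Values are given over 31 of these members. The study asked how *Runx1* bears on the diversity of auditory sensory neurons.

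Both groups carried a tamoxifen-inducible Cre recombinase at the *Runx1* locus and the Ai14 tdTomato reporter, and tamoxifen was given to both on postnatal day 1. Controls, the iCON library, had the genotype Runx1-CreER/+; Ai14/+. The iCKO library had the genotype Runx1-CreER/Runx1F; Ai14/+, in which the floxed allele lies opposite the Cre allele. Cochleae of both sexes were dissociated with collagenase and papain on postnatal days 27 to 29 and sorted for tdTomato, so the cells collected were those with the reporter switched on by the *Runx1*-driven recombinase. There was 1 library of each genotype, and the number of animals in each is not given in the sources used here. Every difference given here is a difference between 2 libraries, or between cells of 1 library, with no replicate check and no p-value.

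Sodium channel alpha subunits carry the rising phase of the action potential, and beta subunits bind them and set their gating and placement in the membrane. HCN channels open on hyperpolarisation and hold the resting potential of spiral ganglion neurons and auditory brainstem neurons close to threshold, while *Nalcn* carries a steady sodium leak that also depolarises the cell at rest. Voltage-gated calcium channels consist of an alpha1 pore with alpha2delta and beta subunits, and they couple depolarisation to transmitter release and to calcium-dependent signalling. Type I spiral ganglion neurons, the main afferents of the inner hair cells, are divided into Ia, Ib and Ic subtypes. *Calb2* (calretinin) is high in Ia neurons and *Lypd1* marks Ic neurons, while the thin type II neurons serve the outer hair cells.

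Because *Runx1* encodes a DNA-binding factor, the promoters of 3 members on which the results turn are shown: *Hcn2*, which was higher in iCKO cells, *Nalcn*, which passed 1.5-fold in both comparisons of control cell sets, and *Scn8a*, which has 2 windows, of which the one that holds a RUNX core motif is shown. Each window runs from 250 bases before to 50 bases after the annotated start of the gene (RefSeq, GRCm38.p6), 5′ to 3′ on the strand of the gene. The windows lie at chr10:79716384-79716683 (plus strand) for *Hcn2*, chr14:123627095-123627394 (minus strand) for *Nalcn* and chr15:100870395-100870694 (plus strand) for *Scn8a*. Capitals mark a match to the RUNX core, searched as TGTGGT or TGCGGT on both strands.
Hcn2: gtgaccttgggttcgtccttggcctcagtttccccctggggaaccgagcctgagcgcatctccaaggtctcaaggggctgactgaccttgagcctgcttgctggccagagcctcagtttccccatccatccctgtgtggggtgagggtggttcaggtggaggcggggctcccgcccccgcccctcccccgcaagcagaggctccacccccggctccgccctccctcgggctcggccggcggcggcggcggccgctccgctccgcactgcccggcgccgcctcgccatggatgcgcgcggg
Nalcn: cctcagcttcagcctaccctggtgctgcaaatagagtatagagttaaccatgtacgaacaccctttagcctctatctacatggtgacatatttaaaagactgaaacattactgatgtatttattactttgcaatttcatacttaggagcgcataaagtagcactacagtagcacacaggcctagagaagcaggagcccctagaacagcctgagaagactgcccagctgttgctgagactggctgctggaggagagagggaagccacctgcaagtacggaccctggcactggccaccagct
Scn8a: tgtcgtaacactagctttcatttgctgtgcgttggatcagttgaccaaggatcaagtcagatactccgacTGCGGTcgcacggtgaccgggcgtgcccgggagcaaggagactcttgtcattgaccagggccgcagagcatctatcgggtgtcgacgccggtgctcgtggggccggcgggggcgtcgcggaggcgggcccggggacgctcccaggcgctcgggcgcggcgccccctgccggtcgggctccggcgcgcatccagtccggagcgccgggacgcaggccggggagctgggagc

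The *Scn8a* window shown held 1 match, TGCGGT. A further *Scn8a* window, at chr15:100936021-100936320, and the *Hcn2* and *Nalcn* windows held none, which says only that these letters are not in those windows. A window was given for 23 of the 31 members, and 6 of the 23 (26.1%) held a match in at least 1 window. Over the 10856 genes of the table with a window, the share was 23.9%. A match is a run of letters and not a measured binding site.

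Levels are in CPM, the UMIs of a gene in a cell scaled to a fixed total (UMI: unique molecular identifier, 1 captured RNA molecule), averaged over the cells of a set, and the SD is over cells. The assay counts the 3′ ends of transcripts, so levels are set side by side for 1 gene at a time and genes are not ranked by level. The cell sets were defined by *Lypd1* and *Calb2* alone. Lypd1-high cells had at least 1000 CPM of *Lypd1* (180 cells in iCON, 126 in iCKO), and Lypd1-low cells had under 100 CPM (256 and 261 cells). Calb2-high cells had at least 10000 CPM of *Calb2* (86 and 227 cells), and Calb2-intermediate cells had 1000 to under 10000 CPM (204 and 142 cells). The Lypd1 sets and the Calb2 sets share cells: 85 of the 86 Calb2-high cells of iCON and 201 of the 227 of iCKO were also Lypd1-low. The Lypd1 sets and the Calb2-intermediate set were made up differently in the libraries. Of the Lypd1-high cells, 21.7% in iCON and 65.1% in iCKO were also Calb2-intermediate. Of the Lypd1-low cells, 33.2% in iCON and 77.0% in iCKO were also Calb2-high, and 54.3% and 19.9% were Calb2-intermediate. Of the Calb2-intermediate cells, 19.1% in iCON and 57.7% in iCKO were also Lypd1-high, and 68.1% and 36.6% were Lypd1-low.

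The libraries differed in several ways that were not part of the design. The median depth was 49725.5 UMIs per cell over the 462 iCON cells and 33602 over the 407 iCKO cells. Cells that held *Xist* but no Y-linked RNA, here called Xist-only cells, made up 54.5% of iCON and 78.4% of iCKO, and cells with little myelin-gene RNA (3 genes, together under 2 per 10000 UMIs) 21.9% and 37.3%. All 8 neuronal markers were listed, and 7 of them had UMIs in most cells of every set in both libraries. The summed level of the 10 Schwann or satellite glia markers ran from 3281 to 4400 CPM over the 4 iCON sets and from 1946 to 2504 CPM over the 4 iCKO sets, with *Mag* at 0 UMIs in 1 iCON and 2 iCKO sets. The part of glial RNA in the library differences was not tested. The library labelled iCKO did not have less *Runx1* RNA: the means were 112 and 144 CPM in Lypd1-high cells, 64.1 and 95.1 in Lypd1-low cells, 16.0 and 100.3 in Calb2-high cells and 112 and 135 in Calb2-intermediate cells of iCON and iCKO. Whether the counted 3′ end lies outside the deleted part of the gene is not given in the sources used here, so these values do not check the genotype labels.

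In control cells, most of the channel genes compared differed by less than 1.5-fold between cell sets. Between 2 sets, ratios are log2 of the mean levels with 5 CPM added to each. A gene was compared where either mean reached 20 CPM, and is counted as different past 1.5-fold (0.58 on the log2 scale). Of the 15 members compared between Lypd1-high and Lypd1-low iCON cells, 1 was higher in Lypd1-high cells (*Nalcn*) and 2 were lower (*Scn9a* and *Cacna2d2*). Over all 6657 genes compared, 2.42% were higher and 2.82% lower by that measure, and the median log2 ratio was 0.04 for the members and 0.01 for all genes. Of the 13 members compared between Calb2-high and Calb2-intermediate iCON cells, *Nalcn* alone passed 1.5-fold, and it was lower, where 1.36% of 6565 genes were higher and 2.36% lower. The medians were -0.14 for the members and -0.03 for all genes.

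**Figure D1:**
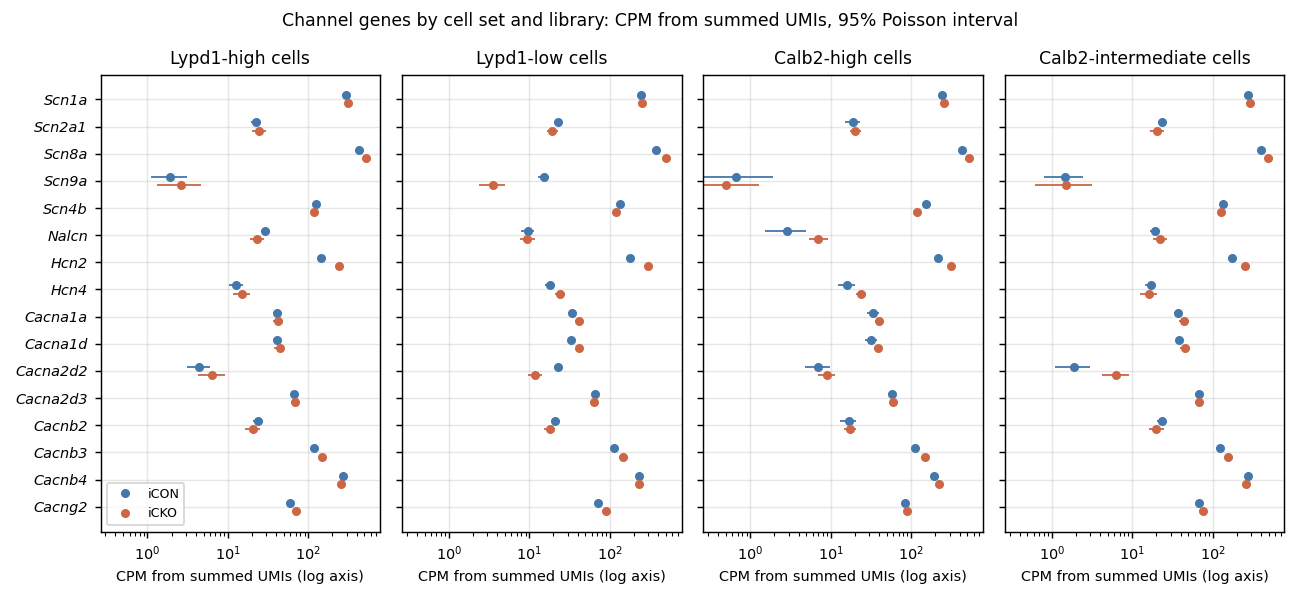
Level from summed UMIs in CPM (horizontal log axis) of the channel genes that reached 20 CPM in at least 1 set, in the 4 cell sets, with 95% Poisson intervals that cover counting error only; colours stand for the libraries. *Hcn2* lies to the right in iCKO in all 4 panels, and *Nalcn* is lowest in Calb2-high cells of iCON.

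Among the sodium channel alpha subunits, *Scn8a* (Nav1.6, the channel of axon initial segments and nodes of Ranvier) was at 429 ± 147 CPM in Lypd1-high, 374 ± 196 in Lypd1-low, 447 ± 186 in Calb2-high and 407 ± 142 in Calb2-intermediate iCON cells. *Scn1a* (Nav1.1) was at 298 ± 108, 239.6 ± 121, 251 ± 108 and 276 ± 106 CPM in the same order. For both genes the SD over cells was larger than any difference between sets. *Scn2a1* (Nav1.2) lay between 22.5 and 26.2 CPM in the 4 sets. *Scn9a* (Nav1.7, known from pain-sensing neurons) was at 1.85, 21.9, 0.803 and 1.61 CPM, with a median of 0 in each set.

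*Scn4b*, the beta subunit tied to resurgent sodium current, was at 129 ± 70.2 CPM in Lypd1-high, 133 ± 82.7 in Lypd1-low, 160.4 ± 74.5 in Calb2-high and 139 ± 75.3 in Calb2-intermediate iCON cells. Its mean was highest in Calb2-high cells, but the log2 ratio to Calb2-intermediate cells, 0.20, was under 1.5-fold.

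*Hcn2*, which encodes an HCN channel that is sensitive to cyclic AMP, had means of 146 ± 67.9 CPM in Lypd1-high, 177 ± 106 in Lypd1-low, 230.4 ± 109 in Calb2-high and 178 ± 78.1 in Calb2-intermediate iCON cells. It was lowest in Lypd1-high and highest in Calb2-high cells. The log2 ratio of Lypd1-high to Lypd1-low cells was -0.27, and that of Calb2-high to Calb2-intermediate cells was 0.36, both under 1.5-fold. The Lypd1-low set held 32 cells that were also low in *Calb2*, described further on, with *Hcn2* at 30.5 CPM against 198 in the rest. The ratio of the Lypd1 sets was -0.07 in Xist-only cells and -0.46 in cells with Y-linked RNA but no *Xist*. Lypd1-high and Calb2-high cells were not compared with each other. *Hcn4* lay between 12.4 and 18.2 CPM.

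For the calcium channel pores, *Cacna1a* (Cav2.1, the P/Q-type channel of many presynaptic terminals) lay between 35.2 and 41.3 CPM and *Cacna1d* (Cav1.3, an L-type channel) between 33.6 and 43.5 CPM in the 4 iCON sets. *Cacna1d* overlaps *Chdh* and *Dcp1a*, and *Cacna2d3* overlaps *Lrtm1*, all on the opposite strand. Whether the counting used strand is not given, so reads could be shared. The alpha2delta gene *Cacna2d3* lay between 60.7 and 69.1 CPM. Among the beta subunits, which carry pores to the membrane, *Cacnb4* was at 269.8 ± 88.5, 227 ± 106, 191 ± 85.5 and 270.2 ± 102 CPM in Lypd1-high, Lypd1-low, Calb2-high and Calb2-intermediate cells. *Cacnb4* was thus lowest in Calb2-high cells, with a log2 ratio of -0.49 to Calb2-intermediate cells. *Cacnb3* lay between 115 and 121 CPM and *Cacnb2* between 17.0 and 24.0 CPM. *Cacng2* (stargazin, named as a calcium channel gamma subunit and known mainly for carrying AMPA receptors) was at 57.5, 68.5, 83.4 and 66.5 CPM.

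*Nalcn* (ENSMUSG00000000197, GRCm38 chromosome 14, 123276634 to 123627144, minus strand) was the one member past 1.5-fold in both comparisons of control cells. Its mean was 29.7 ± 28.4 CPM in Lypd1-high, 9.41 ± 18.6 in Lypd1-low, 2.71 ± 9.01 in Calb2-high and 20.2 ± 26.7 in Calb2-intermediate iCON cells, from 259, 114, 13 and 186 UMIs. The log2 ratio of Lypd1-high to Lypd1-low cells was 1.27, and the counting interval of the summed UMIs, taken without the added 5 CPM, was 1.30 to 1.95. The log2 ratio of Calb2-high to Calb2-intermediate cells was -1.71, with a counting interval of -3.71 to -1.96. These intervals cover counting error only. Both directions were kept in 16 of 16 alternative settings. The ratio was also past 1.5-fold in 16 of 16, between 0.76 and 1.93 for the Lypd1 sets and between -2.51 and -0.82 for the Calb2 sets. Both means were under the minimum level in 1 of the settings for the Lypd1 sets and in 7 for the Calb2 sets, so that *Nalcn* was not compared there.

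The iCKO cells showed the same order of *Nalcn* levels, with 22.2, 9.80, 7.36 and 21.2 CPM in those sets. Cells of each library were also ordered by *Calb2* and divided into 4 groups of nearly equal size, leaving out the cells low in both *Lypd1* and *Calb2* that are described further on. The mean of *Nalcn* was 30.3, 26.5, 16.2 and 5.3 CPM from the lowest to the highest *Calb2* group of iCON, where the median *Calb2* was 38.5, 1560, 4889 and 18533 CPM. It was 26.5, 16.1, 11.3 and 2.5 CPM in iCKO, where the median *Calb2* was 2632, 8058, 16991 and 25585 CPM. *Nalcn* was thus lower in each group than in the one before it in both libraries, while the *Calb2* levels of the groups differed between libraries.

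Across single cells, Spearman's rho of *Nalcn* with *Calb2* was -0.44 over 430 iCON cells and -0.40 over 399 iCKO cells, a description of cells that share a library and, in each cell, a total. Its rho with depth was -0.02 and -0.11. *Hcn2* ran the other way, with a rho to *Calb2* of 0.31 in each library. *Cacnb4* had a rho of -0.27 and -0.25. The other named members lay between -0.16 and 0.16 in iCON and between -0.28 and 0.15 in iCKO.

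**Figure D2:**
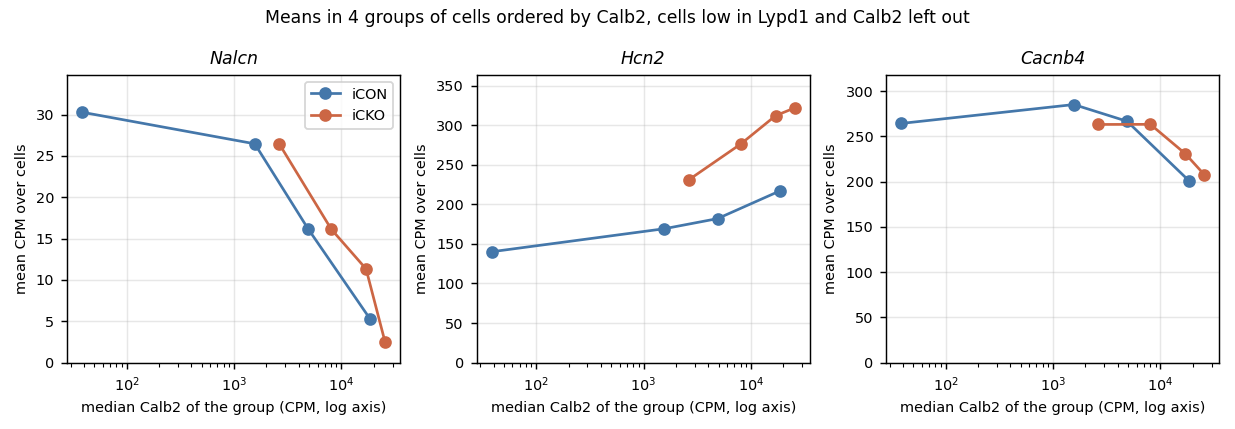
Mean CPM over cells in 4 groups of cells ordered by *Calb2* (horizontal log axis: median *Calb2* of the group in CPM), with 1 panel for each gene and 1 line for each library. *Nalcn* goes down from 30.3 to 5.3 CPM in iCON and from 26.5 to 2.5 CPM in iCKO, while *Hcn2* goes up from 140.1 to 217 CPM in iCON and from 231 to 322 CPM in iCKO and *Cacnb4* is lowest in the highest *Calb2* group of both libraries.

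*Scn9a* and *Cacna2d2* (an alpha2delta subunit) stood apart in the Lypd1-low set because of a few cells. In Lypd1-high against Lypd1-low iCON cells their log2 ratios were -1.97 and -1.95, yet both genes had a median of 0 in each set. The Lypd1-low set contains cells that also had under 1000 CPM of *Calb2*, 32 in iCON and 8 in iCKO. These were singled out after values had been seen, so their levels are a description. Of them, 28 and 6 had UMIs of at least 3 of the 6 type II markers. The 6 markers summed to 1640 CPM in these iCON cells and 1288 CPM in these iCKO cells, against 41.0 and 42.5 CPM in the other Lypd1-low cells. *Gata3* was at 689 and 712 CPM, *Th* at 414 and 82.5, *Plk5* at 385 and 383 and *Prph* at 152 and 112 CPM, while *Smad3* and *Etv4* were at 0 UMIs. Neuronal RNA was present, with 7 of the 8 neuronal markers in at least 50% of these cells. The 10 Schwann or satellite glia markers summed to 3061 CPM in the iCON cells and 633 CPM in the iCKO cells, against 3867 and 1988 CPM in the other Lypd1-low cells, with *Mag* and *Sox10* at 0 UMIs in the 8 iCKO cells. Within that list *Apoe* and *Fabp7*, which mark satellite glia, were higher: *Apoe* was at 1078 against 15.3 CPM in iCON and 121 against 12.6 in iCKO, and *Fabp7* at 422 against 7.69 and 36.9 against 5.38 CPM. Of the 7 hair cell markers, 5 are in the table. They summed to 4599 and 6860 CPM, against 3718 and 4210 CPM in the other cells, most of it *Pvalb*, with *Slc17a8* at 0 UMIs in the iCON cells and *Myo7a*, *Otof* and *Slc17a8* at 0 UMIs in the iCKO cells. *Pcp4* was at 1736 against 1.35 CPM in iCKO, with UMIs in 25% of the 8 cells. The part of these other cell types' markers in the levels that follow was not tested.

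In these cells the mean of *Scn9a* (GRCm38 chromosome 2, 66480080 to 66634962, minus strand) was 168 CPM in iCON and 153 in iCKO, against 1.04 and 0.374 in the other Lypd1-low cells. *Scn9a* overlaps *Gm13629* on the opposite strand. *Cacna2d2* (chromosome 9, 107399612 to 107529343, plus strand) was at 230.4 and 206 CPM, against 3.39 and 7.91. Members that were under 20 CPM in each of the 4 sets were also high there. *Scn2b*, a beta subunit, was at 134 and 130.4 CPM against 2.46 and 1.33, and *Cacng5* at 97.4 and 125 CPM against 3.15 and 1.46. *Cacna1g*, the T-type pore Cav3.1, had 16 UMIs in the 32 iCON cells and 4 in the 8 iCKO cells, and 0 UMIs in the other 224 iCON and 253 iCKO Lypd1-low cells, which allows up to 0.274 and 0.348 CPM.

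Other members were low in the same cells. *Scn8a* was at 52.9 CPM in the 32 iCON cells against 420.4 in the other Lypd1-low cells, and *Scn1a* at 67.3 against 264. *Hcn2* was at 30.5 against 198, *Scn4b* at 29.3 against 148 and *Cacng2* at 7.74 against 77.2 CPM. The Lypd1-low means of iCON given above for these genes include the 32 cells. *Nalcn* had 0 UMIs there in iCON, which allows up to 2.94 CPM, and was at 10.8 CPM in the other cells. Some members differed little in iCON: *Cacnb3* was at 109 against 116 CPM and *Cacna2d3* at 81.2 against 67.4. In iCKO *Cacnb3* was at 169 against 147 CPM and *Cacna2d3* at 137 against 62.7. The 8 iCKO cells gave the same directions for *Scn8a* (122 against 513 CPM), *Scn1a* (59.6 against 259.6) and *Hcn2* (65.0 against 306). One of these cells held 79487 UMIs, against a median of 21042 over the 8, and weighs more in the summed UMIs of the plot than in these means. The *Nalcn* level of the 8 cells was 11.8 against 9.74 CPM, from 5 UMIs in 2 cells.

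**Figure D3:**
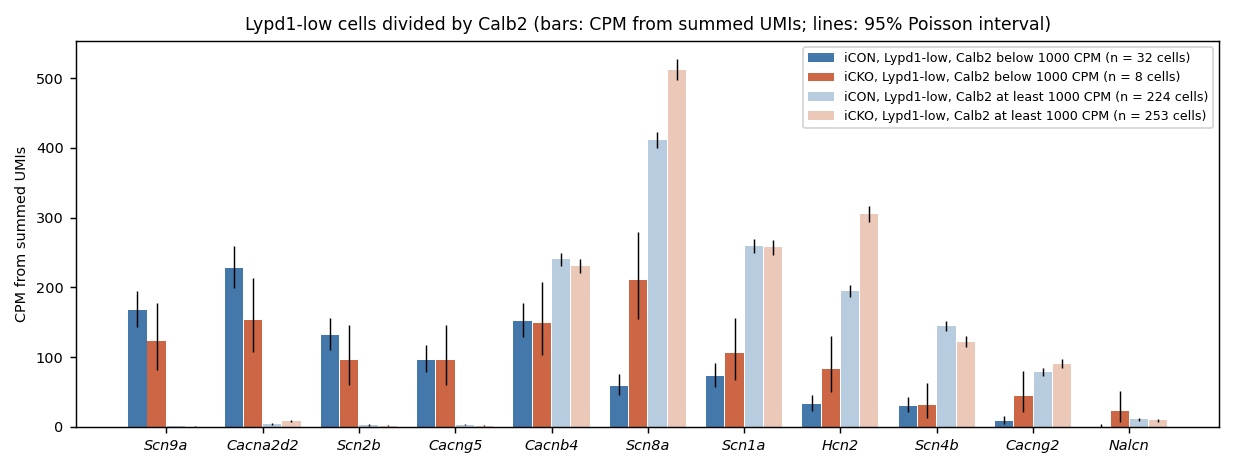
Level from summed UMIs in CPM of 11 channel genes in Lypd1-low cells divided by *Calb2* under 1000 CPM or at least 1000 CPM, in each library; bars are levels and lines 95% Poisson intervals that cover counting error only. *Scn9a*, *Cacna2d2*, *Scn2b* and *Cacng5* are high in the cells with little *Calb2* and close to 0 in the others.

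Between genotypes, few members passed 1.5-fold, and *Hcn2* was the one counted as higher in iCKO. In Lypd1-high cells 13 members were compared, 1 was higher in iCKO (*Hcn2*) and 0 lower, where 1.29% of 6592 genes were higher and 1.82% lower. In Lypd1-low cells 15 were compared, 1 was higher (again *Hcn2*) and 2 lower (*Cacna2d2* and *Scn9a*), where 0.758% of 6599 genes were higher and 2.5% lower. In Calb2-high cells 12 were compared and 0 passed 1.5-fold in either direction, where 1.05% of 6463 genes were higher and 0.99% lower. In Calb2-intermediate cells 13 were compared and 0 passed in either direction, where 1.28% of 6588 genes were higher and 1.23% lower. The median log2 ratio of the members was 0.02, 0.08, 0.18 and 0.11 in these 4 sets, and that of all genes compared was between -0.01 and 0.00. These 4 comparisons share cells.

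*Hcn2* (ENSMUSG00000020331, GRCm38 chromosome 10, 79716634 to 79736108, plus strand) had a mean of 146 ± 67.9 CPM in iCON and 239.7 ± 104 in iCKO Lypd1-high cells. The lowest, median and highest cells were at 0, 139 and 411 CPM in iCON and at 31.8, 241 and 512 CPM in iCKO. The log2 ratio was 0.70 (1.63-fold, counting interval 0.65 to 0.89). In Lypd1-low cells the means were 177 ± 106 and 299 ± 119 CPM, the medians were 177 (0 to 717) and 289.6 (0 to 711), and the log2 ratio was 0.74 (0.65 to 0.81). The single cells of the libraries overlapped over most of their range in both sets.

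In Calb2-high cells *Hcn2* was at 230.4 ± 109 and 316 ± 109 CPM, with medians of 205 (84.0 to 717) and 299 (75.3 to 711) CPM, and a log2 ratio of 0.45 (0.42 to 0.64). In Calb2-intermediate cells it was at 178 ± 78.1 and 256 ± 103 CPM, with medians of 175 (0 to 508) and 247 (40.5 to 708) CPM, and a log2 ratio of 0.51 (0.43 to 0.65). Both ratios were positive and under 1.5-fold. The iCKO mean of *Hcn2* was therefore higher in all 4 sets.

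**Figure D4:**
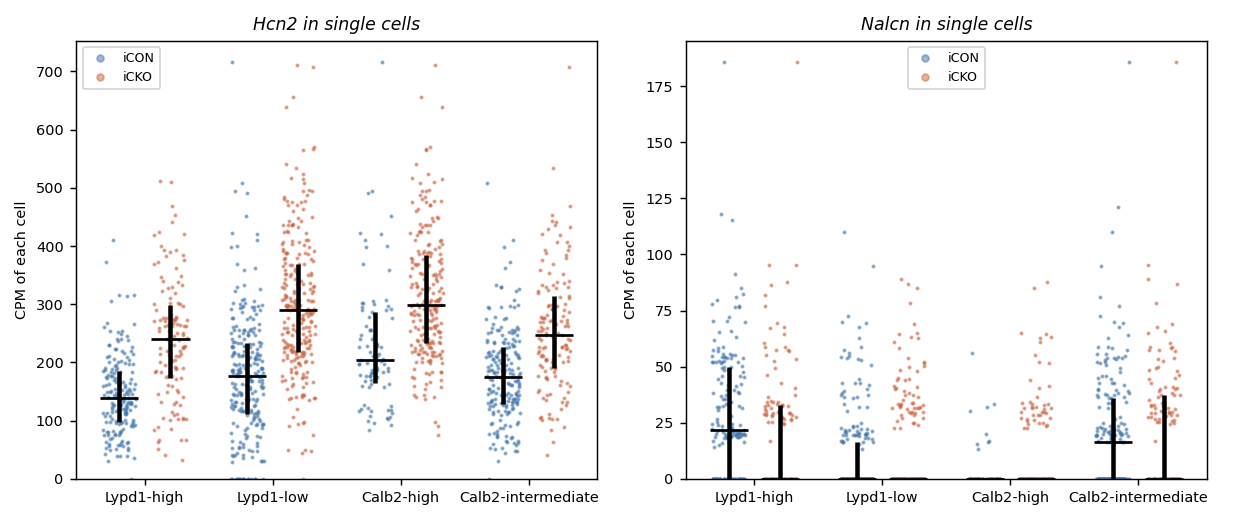
CPM of *Hcn2* and *Nalcn* in every cell (1 dot each) of the 4 sets, by library; the vertical axes start at 0, and black horizontal bars mark medians and vertical bars the middle 50% of cells. The cells of the libraries overlap in each set, the iCKO medians of *Hcn2* are higher, 241 against 139 CPM in Lypd1-high cells, and most Calb2-high cells lie at 0 for *Nalcn*.

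Since the Lypd1-high set held more Calb2-intermediate cells and the Lypd1-low set more Calb2-high cells in iCKO, and *Hcn2* ranks with *Calb2*, the sets were also divided by *Lypd1* and *Calb2* together. In cells high in *Lypd1* with under 1000 CPM of *Calb2* (140 iCON and 30 iCKO cells), *Hcn2* was at 143 and 192 CPM, a log2 ratio of 0.42. In Lypd1-high, Calb2-intermediate cells (39 and 82 cells) it was at 155 and 241 CPM (0.62). In Lypd1-low, Calb2-intermediate cells (139 and 52) it was at 178 and 274 CPM (0.61). The iCKO level was higher in each of these classes, as it was in Lypd1-low, Calb2-high cells (85 and 201), with 231 and 315 CPM (0.44). The ratio was thus past 1.5-fold in the Calb2-intermediate classes and under it in the other 2 classes. The classes were not even in *Calb2*. In Calb2-intermediate cells its median was 1776 CPM in iCON and 4739 in iCKO where *Lypd1* was high. It was 4582 and 6112 CPM where *Lypd1* was low. The part of these *Calb2* differences in the *Hcn2* ratios was not tested. Over the 4 groups ordered by *Calb2*, the lowest *Hcn2* mean of iCKO, 231 CPM, was above the highest of iCON, 217 CPM.

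*Hcn2* was also compared within cells of like sex-linked RNA and like myelin-gene RNA. In Xist-only cells, its log2 ratio was 0.77 in Lypd1-high, 0.98 in Lypd1-low, 0.52 in Calb2-high and 0.59 in Calb2-intermediate cells. In Y-only cells, which held Y-linked RNA but no *Xist*, it was 0.39, 0.43, 0.29 and 0.44. It was positive in both, and lower in the Y-only cells in all 4 sets, a difference that was not tested. In Y-only cells it was under 1.5-fold in all 4 sets. In Lypd1-low cells, 31 of the 137 iCON Xist-only cells and 7 of the 59 iCKO Y-only cells also had under 1000 CPM of *Calb2*. *Hcn2* was low in such cells, and their part in the Lypd1-low ratios was not tested. In all Lypd1-low cells with at least 1000 CPM of *Calb2*, *Hcn2* was at 198 and 306 CPM (0.62). In cells with little and with more myelin-gene RNA, the *Hcn2* ratio was 0.75 and 0.65 in Lypd1-high and 0.77 and 0.74 in Lypd1-low cells. Within cells of 30000 to 45000 UMIs and in the other alternatives, *Hcn2* kept a positive ratio in 16 of 16 settings in each set, and the ratio stayed past 1.5-fold in 14 of them in Lypd1-high and 15 of them in Lypd1-low cells. The range over settings and sets was 0.18 to 0.98. The 0.18 was the ratio in Calb2-high cells of 30000 to 45000 UMIs (18 iCON and 169 iCKO cells), against 0.45 in all Calb2-high cells. That depth setting also gave the lowest ratio in Calb2-intermediate cells, 0.41.

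**Figure D5:**
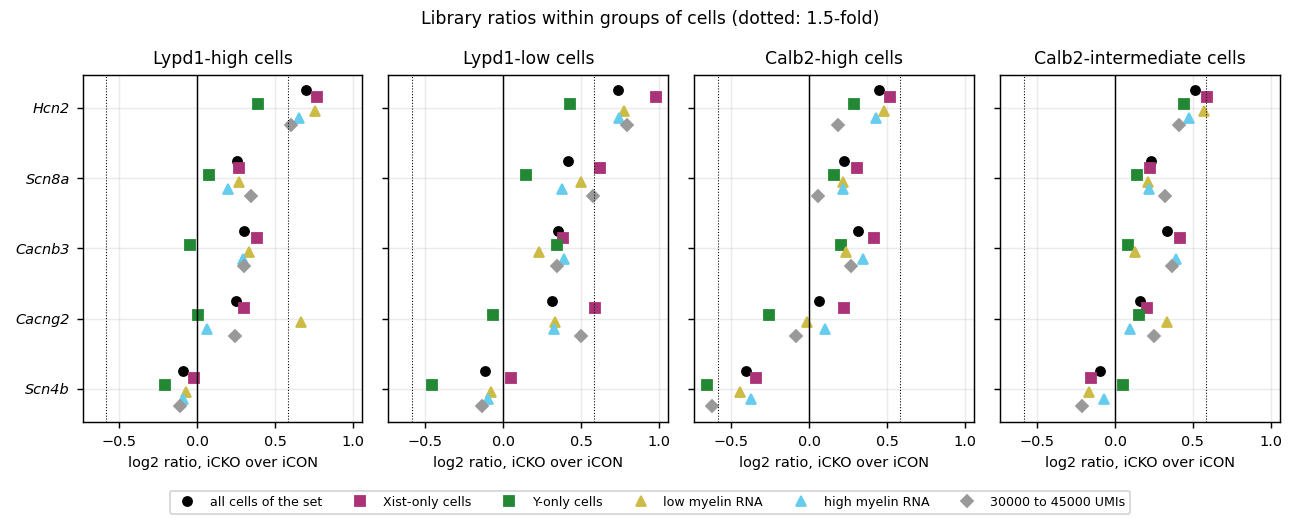
Log2 ratio of iCKO over iCON (horizontal axis) of channel genes in the 4 cell sets, over all cells and within cells grouped by sex-linked RNA, myelin-gene RNA and depth; dotted lines mark 1.5-fold. The *Hcn2* points lie to the right of 0 in every group, and those of the Y-only cells are to the left of those of the Xist-only cells in all 4 sets.

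The sodium channel genes that follow differed by less than 1.5-fold between genotypes in each set. *Scn8a* was at 514 ± 167, 501 ± 168, 524 ± 158 and 479 ± 135 CPM in Lypd1-high, Lypd1-low, Calb2-high and Calb2-intermediate iCKO cells, with log2 ratios to iCON of 0.26, 0.41, 0.23 and 0.23. These ratios were positive and under 1.5-fold in all 4 sets, and positive in 16 of 16 settings in each set. In Lypd1-low cells the *Scn8a* ratio was 0.62 in Xist-only cells, past 1.5-fold, and 0.15 in Y-only cells. It was 0.075 in Y-only Lypd1-high cells and 0.056 in Calb2-high cells of 30000 to 45000 UMIs, the lowest values of those sets. *Scn1a* had ratios of 0.07, 0.08, 0.03 and 0.11. *Scn4b* had ratios of -0.09, -0.12, -0.41 and -0.10, the lowest of them in Calb2-high cells, where the means were 160.4 ± 74.5 CPM in iCON and 119.8 ± 70.6 in iCKO (counting interval -0.55 to -0.27). Within those Calb2-high cells the *Scn4b* ratio was -0.34 in Xist-only cells and -0.66 in Y-only cells, and it was -0.62 in cells of 30000 to 45000 UMIs. *Scn2a1* had ratios between -0.30 and -0.01. The Lypd1-low set also held 32 iCON and 8 iCKO cells with little *Calb2*, in which *Scn8a*, *Scn1a* and *Scn4b* were low. In Lypd1-low cells with at least 1000 CPM of *Calb2*, the ratio was 0.28 for *Scn8a* and -0.02 for *Scn1a*. It was -0.23 for *Scn4b* and -0.25 for *Scn2a1*.

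*Nalcn* had a ratio of -0.35 in Lypd1-high cells (counting interval -0.70 to -0.01) and 0.06 in Calb2-intermediate cells. In Lypd1-high cells with under 1000 CPM of *Calb2*, where *Nalcn* was at 29.1 CPM in iCON and 31.9 in iCKO, the ratio was 0.11. In Lypd1-high, Calb2-intermediate cells (39 iCON and 82 iCKO cells) *Nalcn* was at 32.3 and 19.3 CPM, and the ratio of -0.62 was past 1.5-fold. In Lypd1-low, Calb2-intermediate cells (139 and 52) it was at 15.7 and 22.3 CPM (0.40). The ratio of 0.06 in the Calb2-intermediate set thus covered classes with opposite signs. *Calb2* itself differed between libraries within these classes. Its median was 1776 CPM in iCON and 4739 in iCKO in the Lypd1-high class, and 4582 and 6112 CPM in the Lypd1-low class. The part of *Calb2* in these *Nalcn* ratios was not tested. In Lypd1-high cells the ratio passed 1.5-fold in Xist-only cells (-0.59) and in cells with little myelin-gene RNA (-0.74), and was -0.23 in Y-only cells and -0.28 in cells with more myelin-gene RNA. In Calb2-high cells it was under 20 CPM in both libraries, with 2.71 CPM from 13 UMIs in iCON and 7.36 CPM from 56 UMIs in iCKO.

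*Hcn4*, which encodes the slowest-opening channel of the family, reached 20 CPM in 2 sets, with 18.2 and 23.8 CPM in Lypd1-low cells (ratio 0.31) and 15.1 and 23.4 CPM in Calb2-high cells (0.50, counting interval 0.21 to 1.02) of iCON and iCKO. It reached 20 CPM there in iCKO alone, where it was higher. In the sets where it stayed under 20 CPM in both libraries, the ratio was 0.16 (Lypd1-high) and -0.09 (Calb2-intermediate). Both sets covered classes with opposite signs. In Lypd1-high cells *Hcn4* was at 11.5 and 23.8 CPM with under 1000 CPM of *Calb2* (0.80, past 1.5-fold). It was at 15.8 and 11.5 CPM in Lypd1-high, Calb2-intermediate cells (-0.33) and at 18.0 and 22.8 CPM in Lypd1-low, Calb2-intermediate cells (0.27). In Y-only cells the *Hcn4* ratio was -0.11 in Lypd1-low and -0.25 in Calb2-high cells.

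Of the calcium channel genes, *Cacnb3* was the most even between sets: it was at 118, 115, 117 and 121 CPM in iCON and at 146, 148, 147 and 154 CPM in iCKO, with log2 ratios of 0.30, 0.35, 0.32 and 0.34. In Lypd1-high cells the *Cacnb3* ratio was 0.38 in Xist-only cells and -0.05 in Y-only cells. The ratios were less even in cells divided by *Lypd1* and *Calb2* together. In Lypd1-high cells *Cacnb3* was at 112 and 116 CPM with under 1000 CPM of *Calb2* (0.05). It was at 143 and 149 CPM in Lypd1-high, Calb2-intermediate cells (0.06). In Lypd1-low cells the ratio was 0.49 in Calb2-intermediate and 0.27 in Calb2-high cells. *Cacnb4* had ratios of -0.07, 0.03, 0.22 and -0.06, *Cacng2* of 0.25, 0.32, 0.06 and 0.16, *Cacna1a* of 0.03, 0.19, 0.14 and 0.11 and *Cacna1d* of 0.02, 0.29, 0.22 and 0.14. *Cacna2d3* lay between -0.08 and 0.02, and *Cacnb2* had ratios of -0.17, -0.18 and -0.23 where it was compared. In Lypd1-low cells with at least 1000 CPM of *Calb2*, the ratio was 0.33 for *Cacnb3*, -0.03 for *Cacnb4* and 0.19 for *Cacng2*. It was 0.14 for *Cacna1a*, 0.18 for *Cacna1d*, -0.10 for *Cacna2d3* and -0.13 for *Cacnb2*. Outside the Lypd1-low set, none of the calcium channel genes compared was past 1.5-fold between genotypes.

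In that set, *Cacna2d2* was at 31.8 CPM in iCON and 14.0 in iCKO (log2 ratio -0.95, counting interval -1.29 to -0.62), and *Scn9a* at 21.9 and 5.05 CPM (-1.42, -2.70 to -1.55). The median cell was at 0 in both libraries for both genes, and the highest cells were at 438 and 395 CPM for *Cacna2d2* and 467 and 242 CPM for *Scn9a*. The set held 32 iCON and 8 iCKO cells with little *Calb2*, in which both genes were high. Without those cells the log2 ratio was 0.62 for *Cacna2d2* and -0.17 for *Scn9a*, and *Cacna2d2* was then at 3.39 and 7.91 CPM.

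Further genes that act on these channels were taken from a list of 44 anchoring, trafficking and calcium-binding partners, of which 38 are in the table. In control cells 22 were compared between the Lypd1 sets and 22 between the Calb2 sets, and 0 passed 1.5-fold in either comparison. Of all genes compared, 2.42% were higher and 2.82% lower between the Lypd1 sets, and 1.36% and 2.36% between the Calb2 sets. Between genotypes, 22, 22, 23 and 21 were compared in Lypd1-high, Lypd1-low, Calb2-high and Calb2-intermediate cells. Of all genes compared there, 1.29%, 0.758%, 1.05% and 1.28% were higher in iCKO and 1.82%, 2.5%, 0.99% and 1.23% lower. The median log2 ratio of the partners was 0.19, 0.17, 0.12 and 0.13, and that of all genes was between -0.01 and 0.00. *Cabp1* encodes a calcium-binding protein related to calmodulin that acts on Cav1 and Cav2 channels. It was higher in iCKO in each set and was the only partner past 1.5-fold in any of them. It was at 290.3, 233, 241 and 288 CPM in iCON and at 452, 388, 405 and 438 CPM in iCKO, with log2 ratios of 0.63, 0.73, 0.73 and 0.60. *Unc80*, a subunit of the *Nalcn* channel complex, had ratios of 0.14, 0.28, 0.15 and 0.14, and *Fam155a*, another subunit, had 0.32, 0.32, 0.19 and 0.40. The HCN partner *Pex5l* (TRIP8b), which controls the trafficking of HCN channels, had ratios of 0.14, 0.08, 0.00 and 0.03. *Ank3* (ankyrin-G, the anchor of sodium channels at the initial segment) had 0.32, 0.29, 0.25 and 0.13. These 4 genes were chosen for their roles after their values had been seen.

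The remaining 15 members stayed under 20 CPM in all 4 sets of both libraries, where their highest set means ran from 0.435 CPM (*Cacng8*) to 18.8 CPM (*Scn2b*). They are the pores *Cacna1b*, *Cacna1c*, *Cacna1e*, *Cacna1g* and *Cacna1h*, the auxiliary genes *Cacna2d1*, *Cacna2d4*, *Cacnb1*, *Cacng5*, *Cacng7* and *Cacng8*, the sodium channel genes *Scn2b*, *Scn3a* and *Scn3b*, and *Hcn3*. No ratio is given for them. *Cacna1b* (Cav2.2, the N-type pore) was at 33.7 CPM and *Cacna2d1* at 32.6 CPM in the 32 control cells low in both *Lypd1* and *Calb2*, and *Cacng8* had 0 UMIs in iCON and 5 in iCKO. *Scn2b* overlaps *Gm10684*, *Cacna1c* overlaps *Dcp1b* and *Cacna2d4* overlaps *Lrtm2* on the opposite strand.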

How the data were processed

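Single-cell RNA of tdTomato-sorted mouse cochlear cells was measured with the 10x Genomics 3′ assay v3, per the labels' protocols. The submitters' processing notes name Cell Ranger, Seurat and mm10. Their roles, and any filters applied to cells or genes, are not given in the sources used here. The values deposited by the authors are the natural log of 1 plus CPM of each cell, read from the values, and a deposited annotation of another kind (text) assigns each cell to a library. Whole UMI counts were recovered from the smallest step of each cell, where 100% of nonzero values came out whole within 1e-06. The libraries shared 0 barcodes. No doublet caller was run, and every cell fell in at least 1 of the 4 sets.

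Levels, ratios and counting intervals were computed with Python 3.11.15, numpy 2.4.6, pandas 2.3.3 and scipy 1.17.1, as defined where each first appears. The intervals of ratios are exact conditional binomial intervals of summed UMIs, those of levels in figures exact Poisson intervals, both at 95%, and they cover counting error only. A count of 0 was given the limit that 3 counts allow. Members with at least 20 CPM in a set were named, and for partners the 3 highest and 3 lowest past 1.5-fold. With 1 library per genotype no test was run. The script was tested on simulated data. Of the 34 members, 3 are not reported here, and counts and medians over the members leave them out. The members and the gene lists were chosen with earlier results of these data known. Alternatives changed the pseudocount, the minimum, the centring, the depth, the thresholds and the cells used. The partner genes *Unc80*, *Fam155a*, *Pex5l* and *Ank3* fall outside the naming rule. The *Scn2a1* symbol was not matched in the GENCODE M21 annotation (GRCm38), and its position is not used here.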

Additional observations from a re-analysis of the deposited data

Results flagged for a closer look

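In Lypd1-low cells, the ratio of iCKO to iCON went in opposite directions in Xist-only cells (*Xist* but no Y-linked RNA) and in Y-only cells (Y-linked RNA but no *Xist*), for 2 genes. For *Cacna2d2* the log2 ratio was -2.31 in Xist-only cells (137 iCON and 199 iCKO cells) and 2.29 in Y-only cells (115 and 59 cells). For *Scn9a* it was -3.06 and 2.19. The difference between the kinds of cell was not tested. Beside it, 31 of the 32 iCON cells low in both *Lypd1* and *Calb2* were Xist-only, and 7 of the 8 iCKO cells were Y-only. Both genes were high in those cells in both libraries.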

How the results depend on the processing

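No paired analysis was possible because there was 1 library per genotype. Of 1296 ratios of single genes recomputed under 16 settings, 1109 stayed within their counting interval, 179 moved and 8 reversed. *Hcn2* kept a positive iCKO to iCON ratio in each setting and set. The 8 reversed ratios were past 1.5-fold and changed sign, all of *Cacna2d2* and *Scn9a*. Of the 1296 recomputed values, 83 had the other sign than a main ratio under 1.5-fold. A ratio that changed sign in several settings is counted once for each. Among them were *Cacnb3* in Lypd1-high cells, from 0.30 to -0.05 in Y-only cells, and *Hcn4* in Calb2-high cells, from 0.50 to -0.25. For Lypd1-high against Lypd1-low iCON cells, *Cacna2d2* was at 0.43 in Y-only cells and 0.17 in disjoint sets (Lypd1-high cells with under, against Lypd1-low cells with at least, 1000 CPM of *Calb2*), and *Scn9a* at 0.057 and 0.14. For iCKO against iCON in Lypd1-low cells, *Cacna2d2* was at 2.29 in Y-only cells, 0.62 in disjoint sets and 0.37 without cells with 3 or more of the 6 type II markers, and *Scn9a* at 2.19 in Y-only cells. Disjoint sets and the marker setting leave out cells with type II markers by construction. For the others the cause was not tested.

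Of 96 recomputed counts of members past 1.5-fold, 56 stayed within 1.5 times. For Lypd1-high against Lypd1-low iCON cells the count of 3 became 5 in cells of 30000 to 45000 UMIs and in Xist-only cells, 6 in low-myelin cells and with no minimum, 0 at a minimum of 50 CPM, and 1 in Y-only cells, disjoint sets and without type II marker cells. For Calb2-high against Calb2-intermediate iCON cells the count of 1 became 2 in Xist-only cells, 3 in low-myelin cells, 5 with no minimum, and 0 in Y-only cells, disjoint sets, high-myelin cells, at a minimum of 50, with summed UMIs and with cells thinned to 20000 UMIs. For iCKO against iCON the count of 1 in Lypd1-high cells became 0 in Y-only cells, 2 in Xist-only cells, with no minimum and with cells thinned to 20000 UMIs, and 3 in low-myelin cells. The count of 3 in Lypd1-low cells became 6 at 30000 to 45000 UMIs, 7 in Xist-only cells, 5 in low-myelin cells and with no minimum, and 1 in disjoint sets, at a minimum of 50 and without type II marker cells. The count of 0 in Calb2-high cells became 1 at 30000 to 45000 UMIs, in Xist-only cells, in low-myelin cells, with the limits moved inward, with no minimum and with a pseudocount of 1 CPM, and 2 in Y-only cells. The count of 0 in Calb2-intermediate cells became 1 at 30000 to 45000 UMIs, in Xist-only cells, in Y-only cells and with no minimum. Leaving out cells with at least 1000 CPM of *Prph* took away 1 cell. The settings by type II markers and by 30000 to 45000 UMIs were chosen after seeing the data. Depth limits members under 20 CPM.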
